A study of Mus musculus with 19 samples.

Results

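The genes described here encode 10 receptor chains for cytokines of the IL-1 and IL-17 families and for IL-23, and all 10 were among the 18607 genes of the deposited table. They were chosen by name as a family, apart from Il17re, which was picked because of its pattern across these libraries and is therefore described with no test. RNA-seq libraries were made from bone marrow progenitors of C57BL/6 mice in 3 groups. ALP, lymphoid progenitors from Tcf7EGFP/+ mice (7 libraries), were sorted as cells positive for Kit and IL-7Ra with high Flt3. EILP, early innate lymphoid progenitors from Tcf7EGFP/+ mice (7 libraries), were Kit positive with high GFP, and had little Thy-1.2 and at most intermediate IL-7Ra. ILCp, later innate lymphoid progenitors (5 libraries), were Kit positive with high GFP too, and carried Thy-1.2, a4b7 and high IL-7Ra. They came from Tcf7EGFP/+ mice in ILCp 1 to 3 and from Plzf-cre-GFP/+ mice in ILCp 4 and 5. All 3 groups were gated as low for lineage markers and Ly-6D, and EILP and ILCp also as low for CD122. The genotypes give each mouse 1 reporter allele, and what drives GFP thus differs within ILCp. The labels give no age and do not say whether animals were pooled, and none of the 10 receptors was used for sorting. The labels place the libraries in 5 batches, and EILP 3 and EILP 4 alone make up batch 3.

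Receptors of the IL-1 family pair a ligand-binding chain with an accessory chain and signal through TIR domains, MyD88 and IRAK kinases. Il1rl1 encodes ST2, the IL-33 receptor known from type 2 innate lymphoid cells (ILC2) and mast cells. Il1r1 encodes the IL-1 receptor, and both chains use the accessory protein encoded by Il1rap. Il18r1 and Il18rap encode the binding and accessory chains for IL-18. In the IL-17 family Il17ra is the shared chain, which joins Il17rb for IL-25, Il17rc for IL-17A and IL-17F and Il17re for IL-17C, and signals through the adaptor Act1. Il23r pairs with the chain encoded by Il12rb1 and marks the type 3 lineage (ILC3). In innate lymphocytes these receptors are known for letting epithelial and myeloid cytokines set the type of response.

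Levels are given in log2 CPM as deposited by the authors, that is, reads scaled to a common library total. The values themselves show that batch differences had been removed with the groups kept, so the spread between batches is missing from them. A library in which a gene had no reads carries the lowest level of its batch for that gene, called the zero level here and recognised where at least 2 libraries of a batch share that lowest value. This level averaged −4.96 over batches in 2423 of 2426 genes that showed it in each batch. Where a single batch lacked such a tie, its zero level was inferred from this average, as for Il23r in EILP 4. The zero level of a gene differed between batches, so the batch removal had moved each gene by its own amount in each batch. The depth of the libraries is unknown. Of 9 genes known from EILP and ILCp, 9 were higher in EILP than in ALP (limma adjusted p below 0.05), where 2.25% of all genes were. Of the same 9, 8 were higher in ILCp than in ALP, where 3.86% of all genes were. The list includes Tcf7, Thy1, Itga4, Itgb7 and Zbtb16, whose products or reporters served in sorting some groups, so these counts were partly fixed beforehand. RNA of other lineages also differed between groups. Summed over 12 neutrophil and monocyte genes it was 561 to 7181 CPM in ALP, 1640 to 41824 in EILP and 90.1 to 1705 in ILCp, and over 8 eosinophil genes it reached 11069 CPM in EILP 6. In bulk RNA, fewer cells of a type and less RNA per cell cannot be told apart. Since no label ties a library to its own animal, the p-values describe how far these libraries vary, and that variation may be technical only.

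**Figure D1:**
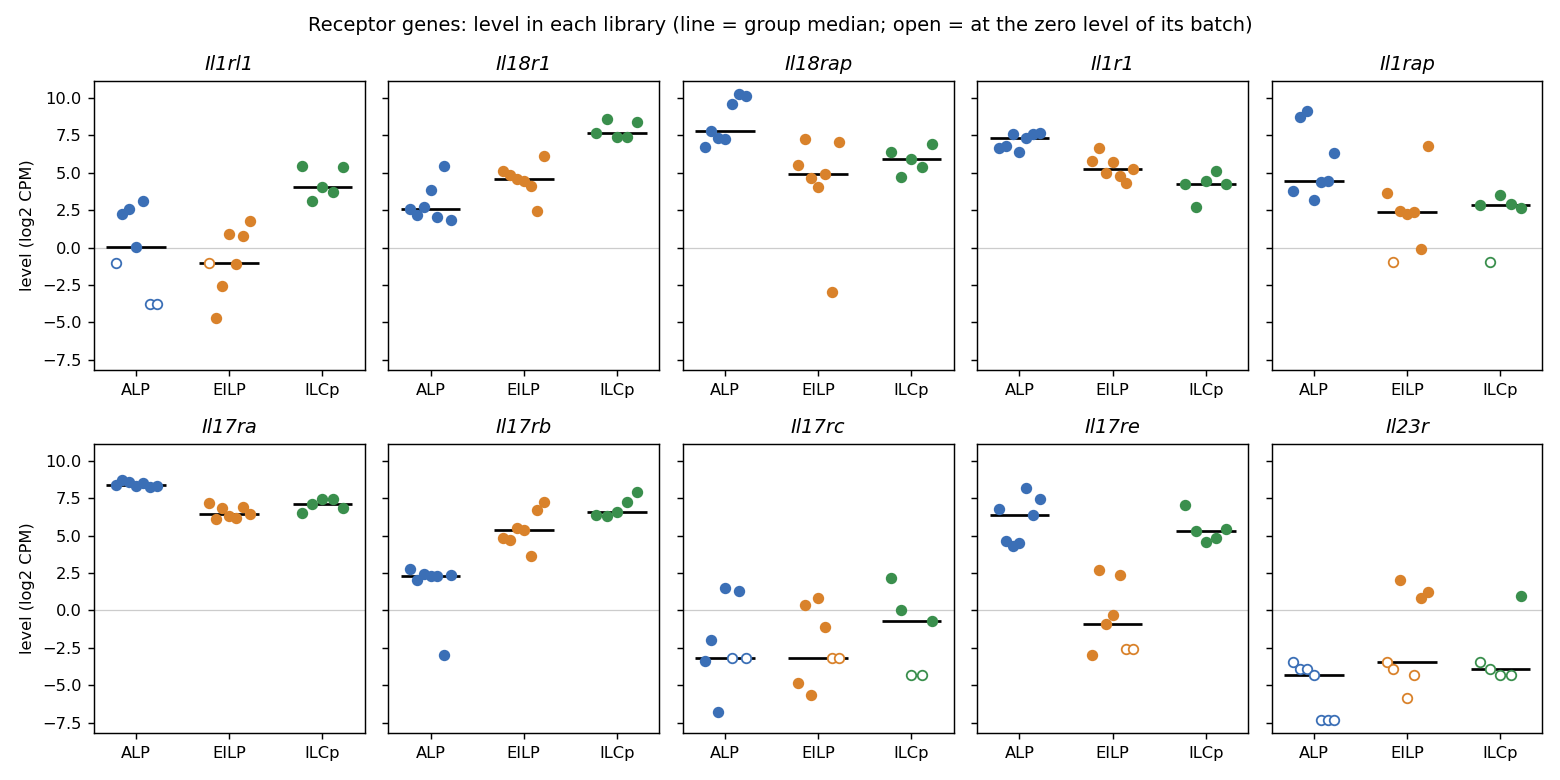
Level of each receptor gene (log2 CPM, vertical axis) in 7 ALP, 7 EILP and 5 ILCp libraries, 1 point per library, with the group median as a line and libraries recognised at the zero level as open points. Il18r1 and Il17rb lie highest in ILCp, Il1r1 and Il17ra highest in ALP, and Il17re lowest in EILP.

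Across the family the receptor set of ILCp differed from that of ALP in both directions. From ALP to ILCp Il18r1 and Il17rb rose and Il1r1 and Il17ra fell, which made 4 of the 9 tested members (limma adjusted p below 0.05), 2 in each direction, where 8.24% of all genes passed, 3.86% higher and 4.39% lower. From ALP to EILP Il17rb rose and Il1r1 and Il17ra fell, 3 of 9, where 5.05% of all genes passed, 2.25% higher and 2.79% lower. From EILP to ILCp Il18r1 alone rose, 1 of 9, where 3.21% of all genes passed, 1.76% higher and 1.46% lower. Unadjusted p-values below 0.05 were found for 7, 3 and 6 of the 9 in EILP versus ALP, ILCp versus EILP and ILCp versus ALP. Over all 18607 genes the counts were 3249, 3097 and 3888 in the same order. The 7 include Il23r, which was at the zero level in each ALP library. A second measure was read from the deposited, batch-adjusted levels, which the batch removal can shift between batches (see Il1rl1 below). It was that groups did not overlap at all. Between ALP and EILP this held for Il17rb, higher in EILP, and Il17ra, lower, 2 of 9 (4.74% of all genes, 2.36% higher and 2.38% lower). Between EILP and ILCp it held for Il1rl1 and Il18r1, both higher in ILCp, 2 of 9 (8.68% of all genes, 3.35% higher and 5.34% lower). Between ALP and ILCp it held for Il1rl1, Il18r1 and Il17rb, higher in ILCp, and Il1r1 and Il17ra, lower, 5 of 9 (8.96% of all genes, 4.01% higher and 4.96% lower). The median log2 fold change of the 9 was −0.77 in EILP versus ALP (0.00 over all genes), 1.00 in ILCp versus EILP (−0.08 over all genes) and 0.83 in ILCp versus ALP (−0.03 over all genes). Each median is the value of a single member, Il1rl1 in EILP versus ALP (limma adjusted p = 0.841) and Il17rc in the others (0.866 and 0.874). The members moved in both directions, so no common shift is read from these medians. The comparisons with ALP share their ALP libraries.

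**Figure D2:**
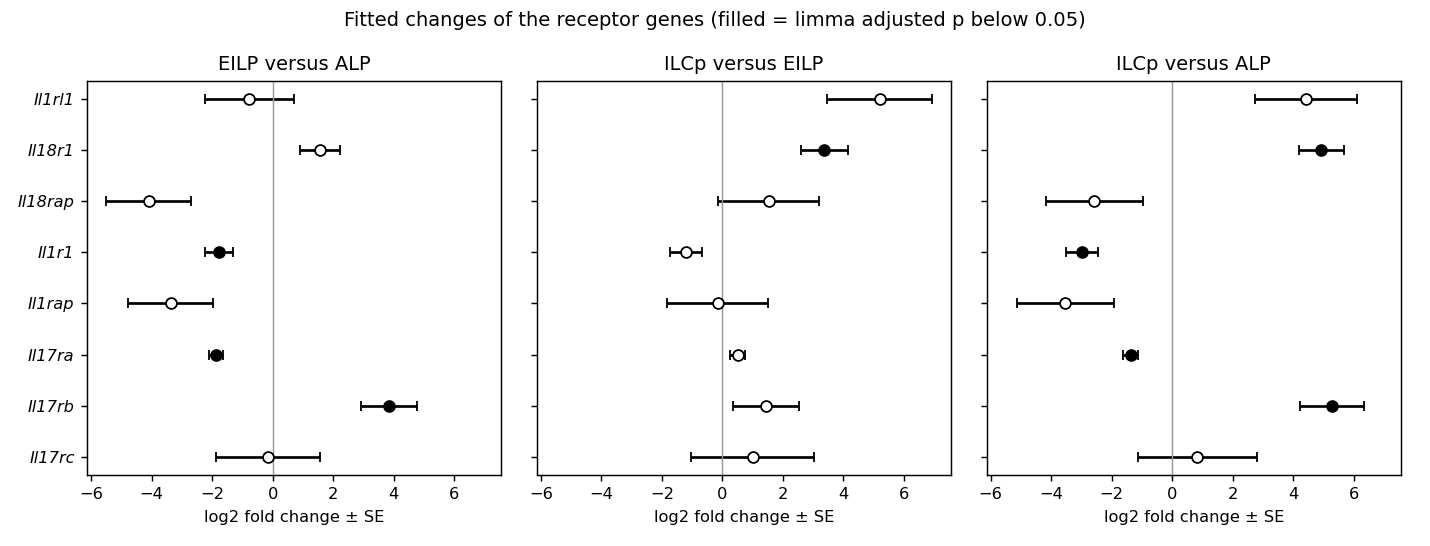
Fitted log2 fold change (horizontal axis) with its standard error for 8 receptor genes in the 3 comparisons, filled where the limma adjusted p was below 0.05. Il17re, chosen for its pattern, and Il23r, at the zero level in each ALP library, are left out, and the points furthest right in ILCp versus ALP are Il17rb at 5.29 and Il18r1 at 4.94.

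The chains of the IL-18 receptor had different patterns. Il18r1 (chromosome 1, 40465552 to 40500854, + strand, GRCm38), the binding chain, ran from 1.82 to 5.44 log2 CPM in ALP with a median of 2.61, and from 2.46 to 6.10 in EILP with a median of 4.59. In ILCp it stood at 7.65, 8.58, 7.41, 7.41 and 8.39. Each ILCp library was thus above every ALP and EILP library, while ALP and EILP overlapped. Il18r1 rose from ALP to ILCp by 4.94 ± 0.76 (SE) on the log2 scale (limma adjusted p = 0.000621), with differences of 3.92 to 6.13 within the 3 batches that hold both groups. From EILP to ILCp it rose by 3.37 ± 0.79 (limma adjusted p = 0.0294), and by 2.55 to 3.73 within batches. That second call rested on single libraries: leaving out any of EILP 2 to 5, or ILCp 1, ILCp 2 or ILCp 5, ended it, with folds of 3.02 to 3.49 and limma adjusted p-values of 0.0575 to 0.142. The difference of EILP from ALP was 1.57 ± 0.66 (limma adjusted p = 0.228), positive in 4 of 4 batches.

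Il18rap (chromosome 1, 40515362 to 40551705, + strand), the accessory chain, was highest by median in ALP. It ran from 6.75 to 10.26 log2 CPM in ALP with a median of 7.81. In EILP it ran from −2.99 to 7.25 with a median of 4.90, and in ILCp it stood at 6.42, 4.73, 5.93, 5.38 and 6.94. The groups overlapped, and EILP 6 stood far below the other EILP libraries. EILP differed from ALP by −4.10 ± 1.41 (limma adjusted p = 0.12), with within-batch differences of −7.95 to −0.33 and a fold of −1.84 without EILP 6. ILCp versus EILP and ILCp versus ALP gave limma adjusted p-values of 0.714 and 0.399.

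Set against each other per length of exon, the chains changed order along the stages in the deposited values. The batch removal moved each gene by its own amount, so the difference in a single library is not an exact ratio of the chains. This holds for each such comparison of chains below. Il18r1 minus Il18rap, in log2 CPM per kb, was negative in each of the 7 ALP libraries (−7.82 to −2.98), positive in 4 of 7 EILP libraries (−1.91 to 5.94) and positive in 5 of 5 ILCp libraries (1.72 to 4.33). Markers of NK cells and ILC1, which carry the IL-18 receptor, summed over 7 genes to 0.563 to 19.3 CPM in ALP, 3.59 to 96.9 in EILP and 22.9 to 78.4 in ILCp. Of these 7, Eomes, Ncr1, Gzma and Tbx21 were called higher in ILCp than in ALP, as Il18r1 was, where 3.86% of all genes were. Their ILCp medians were 4.62, 4.18, 1.91 and 2.02 log2 CPM. The other 3, Klrb1c, Gzmb and Prf1, had ILCp medians below 0. Eomes and Gzma were also called higher in EILP than in ALP (2.25% of all genes), where Il18r1 was not. Between EILP and ILCp 0 of 7 passed (3.21% of all genes). The part of these 7 genes in the rise of Il18r1 was not tested.

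**Figure D3:**
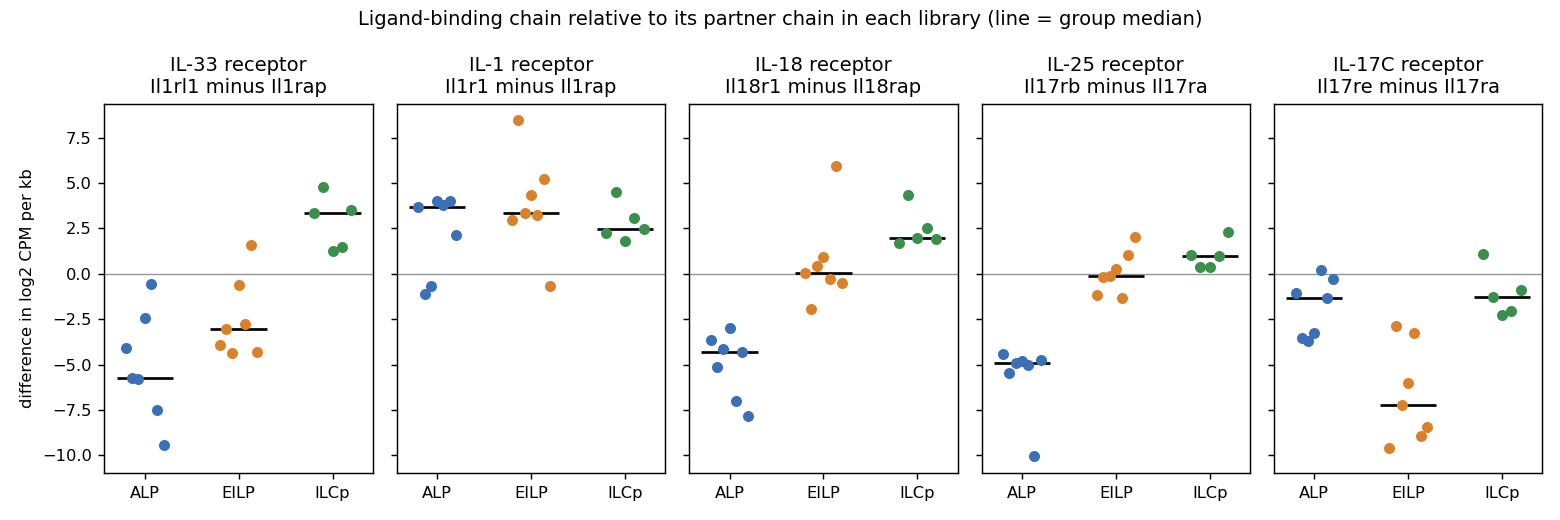
Binding chain minus partner chain, each as log2 CPM per kb of exon (vertical axis), in every library by group, with group medians as lines (points that rest on a chain at the zero level, as for Il1rl1 in 3 ALP libraries, are not exact). For the IL-33, IL-18 and IL-25 receptors the difference is below 0 in each ALP library and above 0 in each ILCp library. Levels were batch-adjusted gene by gene, so single points are not exact ratios of the chains.

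Il1rl1 (chromosome 1, 40429570 to 40465415, + strand), the IL-33 receptor, varied within ALP and EILP and was highest in ILCp. In ALP it ran from −3.78 to 3.11 log2 CPM with a median of 0.05, and 3 libraries were at the zero level. ALP 2, ALP 3 and ALP 5 stood at 2.28, 2.61 and 3.11, not far below the lowest ILCp library. In EILP it ran from −4.68 to 1.78 with a median of −1.001. In ILCp it stood at 5.43, 3.14, 4.07, 3.70 and 5.39, each above every library of the other groups in the deposited values. The zero level of Il1rl1 was −1.001 in batch 1, which holds ILCp 1, and −3.78 in batch 5, which holds ALP 5. The batch removal may thus have placed batch 1 high against batch 5. Libraries of different batches, such as ILCp 1 and ALP 5, can therefore not be ranked exactly, and the lack of overlap with ALP may depend on the adjustment. The rise in ILCp did not pass the test over all genes, at 5.19 ± 1.74 for ILCp versus EILP (limma adjusted p = 0.128) and 4.42 ± 1.68 for ILCp versus ALP (limma adjusted p = 0.132). Within batches ILCp exceeded EILP by 5.48 to 7.82 and ALP by 0.70 to 6.43. Without the batch term the same folds had limma adjusted p-values of 0.00911 and 0.0186. These are too small, since batch had already been removed from the values and such a fit understates the error. With EILP and ILCp fitted alone, the fold between them was 6.42 (limma adjusted p = 0.0381), and in that fit Il18r1 did not pass (0.111). EILP versus ALP gave a limma adjusted p of 0.841. Per length, Il1rl1 was below its partner Il1rap in 7 of 7 ALP libraries and above it in 1 of 7 EILP and 5 of 5 ILCp libraries. Over the libraries with neither gene at the zero level, the difference was −5.79 to −0.57 log2 CPM per kb in 4 ALP libraries and 1.28 to 3.49 in 4 ILCp libraries. The separate batch adjustment of the 2 genes enters these differences.

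Il1rl1 is also a gene of mast cells and mature ILC2, and the markers of both were read in the same libraries. The 5 mast cell and basophil genes in the table summed to 14.9 to 715 CPM in ALP, 341 to 4988 in EILP and 126 to 701 in ILCp. Cpa3, a carboxypeptidase of mast cell granules, had medians of 1.30, 10.04 and 7.79 log2 CPM in the same order. It was the only gene of this list called higher in ILCp than in ALP (1 of 5, against 3.86% of all genes). The protease gene Mcpt8 had medians of 3.94, 6.37 and 4.19, and Prss34, another basophil protease, 0.59, −0.11 and 6.23. Of the IgE receptor chains, Fcer1a had medians of −3.22, −3.22 and 3.88 and Ms4a2 had medians below 0 in each group. Between EILP and ILCp, where Il1rl1 was higher, 0 of these 5 passed, against 3.21% of all genes (limma adjusted p = 0.178 for Prss34 and 0.292 for Fcer1a, both higher in ILCp). The 6 mature ILC2 genes in the table summed to 0.23 to 1.09 CPM in ALP, 0.395 to 42.9 in EILP and 49.4 to 482 in ILCp. Of these 6, Arg1, Areg, Il4 and Calca were called higher in ILCp than in ALP (3.86% of all genes). Areg, Il4 and Calca were also called higher than in EILP (1.76% of all genes). The ILCp medians were 7.22 for Arg1, 0.30 for Areg, 1.56 for Il4 and 2.95 log2 CPM for Calca. Il5 and Klrg1 were at the zero level in 4 and 3 of the 5 ILCp libraries. Their part in the Il1rl1 levels was not tested.

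Il1r1 (chromosome 1, 40225080 to 40317257, + strand), which binds IL-1, fell along the same stages. It ran from 6.38 to 7.64 log2 CPM in ALP with a median of 7.33 and from 4.31 to 6.67 in EILP with a median of 5.27, and stood at 4.26, 2.74, 4.46, 5.14 and 4.23 in ILCp. Every ALP library was above every ILCp library, and EILP overlapped both. Il1r1 fell by 2.98 on the log2 scale from ALP to ILCp (SE 0.52, limma adjusted p = 0.00164), with within-batch differences of −4.46 to −1.77. From ALP to EILP it fell by 1.78 (SE 0.45, limma adjusted p = 0.0309), lower in 4 of 4 batches by −2.74 to −0.53. This call is close to the threshold: it was lost in 17 of 33 other settings, among them the omission of ALP 3, any of ALP 5 to 7, any of EILP 3 to 7, ILCp 3 or ILCp 5, with limma adjusted p-values of 0.0523 to 0.115. Per length, Il1r1 exceeded Il1rap in 5 of 7 ALP, 6 of 7 EILP and 5 of 5 ILCp libraries. ILCp differed from EILP by −1.20 ± 0.54 (limma adjusted p = 0.273).

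The accessory chain gene Il1rap (chromosome 16, 26581704 to 26730117, + strand) varied widely within ALP in the deposited values. It ran there from 3.20 to 9.12 log2 CPM with a median of 4.42, and the ALP libraries of batch 2 were highest, ALP 2 at 8.74 and ALP 3 at 9.12. EILP ran from −0.94 to 6.79 with a median of 2.38, and ILCp stood at 2.82, −0.94, 3.52, 2.92 and 2.62. EILP 2 and ILCp 2, also of batch 2, were at the zero level, and the groups overlapped. The zero level of Il1rap was −0.94 in batch 2, against −4.96 on average over batches for genes at zero in each batch. The batch removal may thus have placed the batch 2 levels of Il1rap high, which leaves differences within that batch unchanged. EILP differed from ALP by −3.37 ± 1.41 (limma adjusted p = 0.22) and ILCp from ALP by −3.53 ± 1.61 (limma adjusted p = 0.221), while ILCp versus EILP gave a limma adjusted p of 0.98. Batch 2 carried most of this, with −9.87 there in both comparisons with ALP against −1.71 to −0.18 in the other batches. The neutrophil and monocyte sum was highest among ALP libraries in ALP 2 and among EILP libraries in EILP 2, and its part was not tested. Il1rap shares 552 exonic bases with the antisense gene Gm20319, and these libraries do not keep the strand.

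Il1r1, Il1rl1, Il18r1 and Il18rap lie in a cluster on chromosome 1. With Il1r2, the decoy receptor for IL-1, and Il1rl2, the IL-36 receptor, they fill 478 kb in the order Il1r2, Il1r1, Il1rl2, Il1rl1, Il18r1 and Il18rap, all on the + strand, with no other protein-coding gene between them in GENCODE M21. Il18r1 and Il18rap are separated by 14507 bases, and Il1rl1 and Il18r1 by 136. These neighbours Il1rl1 and Il18r1 were both highest in ILCp, without overlap with ALP or EILP in the deposited values, though Il1rl1 did not pass the test. Other genes of the cluster differed in pattern. Il18r1 rose from ALP to ILCp and Il1r1 fell, while Il1r2 ran from 4.32 to 6.22 log2 CPM in EILP with a median of 5.09, against medians of 3.17 in ALP and 2.72 in ILCp (limma adjusted p = 0.258 for EILP versus ALP). Il1rl2 had medians of 4.30 in ALP, −1.46 in EILP and −0.14 in ILCp, with ranges that overlapped.

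**Figure D4:**
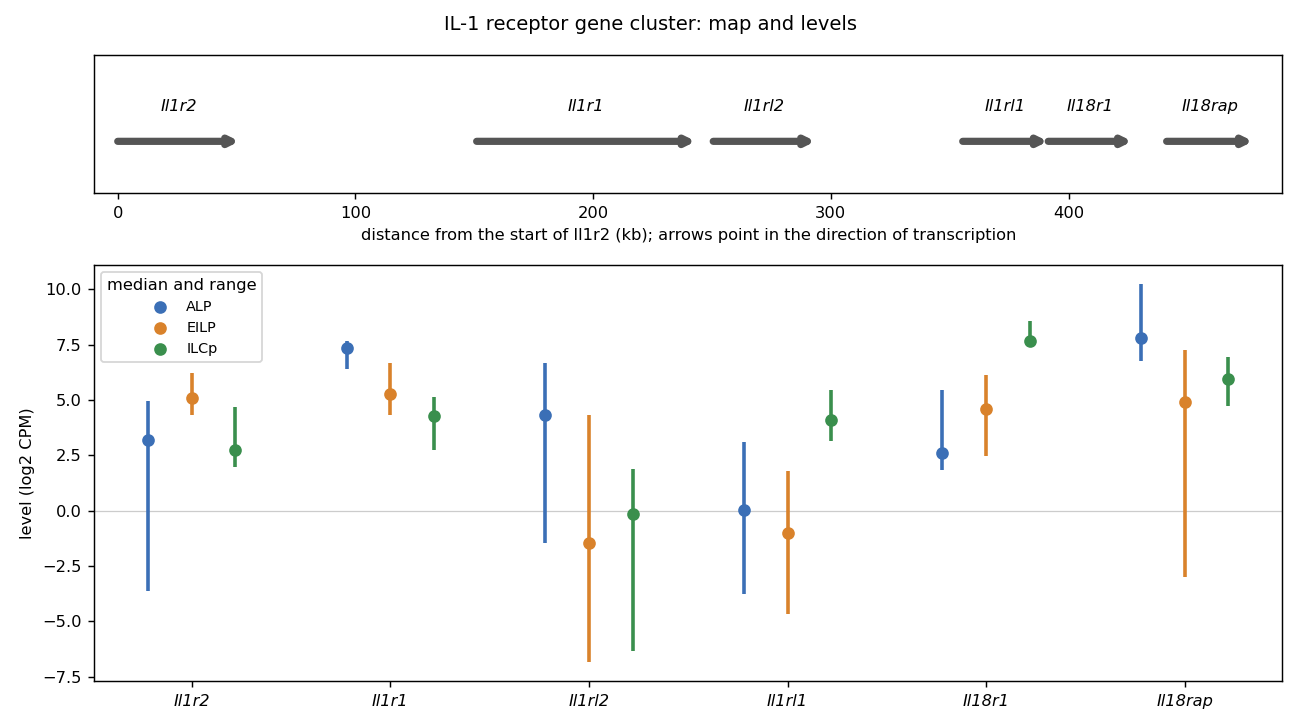
Top, map of the 6 receptor genes of the cluster by distance from the start of Il1r2 in kb, with arrows for the direction of transcription. Bottom, level of each gene (log2 CPM), with the median as a point and the range over libraries as a line: Il1r1 descends from ALP to ILCp, Il18r1 ascends, and the others show neither course in full.

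Upstream sequence is shown for 3 genes of this cluster with different patterns, and for Il23r, which was at or near the zero level. Each is the 250 bases before a RefSeq start site (GRCm38.p6), 5′ to 3′ on the gene's strand, and none overlaps an annotated exon. The windows of Il18rap and Il23r lie at a principal transcript start of GENCODE M21, while those shown for Il1rl1 and Il1r1 do not. Capitals mark matches, on either strand, to short letters known from factors of innate lymphoid development. CTTTGA was searched for the TCF family and AGATAA for the GATA family. The letters AGGTCA stood for ROR and similar nuclear receptors. For the RUNX family the search used TGTGGT, and for NFIL3 it used TTANNTAA. No pair of these motifs overlapped in the windows shown. The windows are chr1:40429320-40429569 for Il1rl1, chr1:40224830-40225079 for Il1r1, chr1:40515112-40515361 for Il18rap and chr6:67491856-67492105 for Il23r.
Il1rl1: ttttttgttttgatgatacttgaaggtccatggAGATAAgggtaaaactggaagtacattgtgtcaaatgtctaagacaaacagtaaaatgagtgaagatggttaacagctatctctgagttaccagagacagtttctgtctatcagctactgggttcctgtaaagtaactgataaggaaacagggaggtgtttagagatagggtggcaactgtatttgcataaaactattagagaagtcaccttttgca
Il1r1: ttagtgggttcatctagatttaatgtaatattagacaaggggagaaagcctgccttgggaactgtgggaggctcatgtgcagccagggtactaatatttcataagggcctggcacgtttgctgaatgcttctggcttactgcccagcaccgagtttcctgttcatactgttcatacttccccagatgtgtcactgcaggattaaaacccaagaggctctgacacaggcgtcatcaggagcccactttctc
Il18rap: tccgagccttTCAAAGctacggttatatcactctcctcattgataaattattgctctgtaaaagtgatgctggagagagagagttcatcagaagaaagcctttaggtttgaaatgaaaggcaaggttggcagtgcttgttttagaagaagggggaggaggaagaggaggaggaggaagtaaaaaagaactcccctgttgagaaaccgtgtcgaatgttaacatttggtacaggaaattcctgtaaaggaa
Il23r: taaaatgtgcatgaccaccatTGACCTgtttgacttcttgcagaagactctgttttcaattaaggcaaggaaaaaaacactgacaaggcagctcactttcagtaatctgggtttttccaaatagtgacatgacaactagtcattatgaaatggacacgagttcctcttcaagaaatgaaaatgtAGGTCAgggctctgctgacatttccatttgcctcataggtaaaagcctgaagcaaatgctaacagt

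A window was available for 9 of the 10 members. The Il1rl1 window shown holds AGATAA. A second Il1rl1 window, which does lie at a principal start, holds AGATAA and also AGGTCA and TGTGGT. The Il18rap window holds CTTTGA and the Il23r window holds AGGTCA at 2 places. The windows of the other 6 genes hold none of these letters. Among all 32851 windows of the same length, 13.8% hold CTTTGA, 9.99% AGATAA, 14.0% AGGTCA, 14.0% TGTGGT and 5.43% TTANNTAA, so that such matches are common. A match is a description of the letters only.

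Of the IL-17 family chains, Il17ra (chromosome 6, 120463247 to 120487559, + strand), the shared chain, was the most even within groups. It ran from 8.25 to 8.71 log2 CPM in ALP with a median of 8.40 and from 6.11 to 7.17 in EILP with a median of 6.45, and stood at 6.51, 7.12, 7.42, 7.46 and 6.83 in ILCp. Each ALP library was above each library of the later stages. Il17ra fell by 1.87 on the log2 scale from ALP to EILP (SE 0.22, limma adjusted p = 5.39e-05) and by 1.37 from ALP to ILCp (SE 0.25, limma adjusted p = 0.00235). Both calls held in each of 33 other settings. Within batches the differences were −2.52 to −1.22 and −1.89 to −1.08. ILCp versus EILP gave 0.50 ± 0.26 (limma adjusted p = 0.35), with 2 batches higher and 1 lower.

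Il17rb (chromosome 14, 29996135 to 30008896, − strand), the IL-25 receptor chain of ILC2, went the opposite way. ALP ran from −3.01 to 2.75 log2 CPM with a median of 2.31, where ALP 6 was the low library and the other 6 lay between 2.03 and 2.75. EILP ran from 3.62 to 7.25 with a median of 5.34, and ILCp stood at 6.34, 6.30, 6.57, 7.22 and 7.93. Every EILP and ILCp library was above every ALP library, and EILP overlapped ILCp. Il17rb rose by 3.84 ± 0.92 from ALP to EILP (limma adjusted p = 0.0215), with within-batch differences of 1.33 to 6.45. This call was lost in 6 of 33 other settings. Without EILP 6 or EILP 7 the rise was 3.44 or 3.28 (limma adjusted p = 0.0856 and 0.0902), and without batch 4 it was 4.41 (limma adjusted p = 0.0948). The call was also lost with ALP and EILP fitted alone (limma adjusted p = 0.106), without the Plzf-cre-GFP libraries (0.0541) and without ALP 7 and EILP 2 together (0.0579). From ALP to ILCp Il17rb rose by 5.29 ± 1.05 (limma adjusted p = 0.00469), and by 3.59 to 4.96 within batches. This call was lost in 2 of 33 other settings, without batch 4 (limma adjusted p = 0.151) and with ALP and ILCp fitted alone (0.0876). ILCp versus EILP gave a limma adjusted p of 0.554.

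Il17rb shares 141 exonic bases with Actr8, a chromatin remodelling subunit on the other strand, so some reads cannot be assigned between them. Actr8 had medians of 6.02, 5.77 and 5.83 log2 CPM in ALP, EILP and ILCp, with limma adjusted p-values of 0.831, 0.885 and 1 in the 3 comparisons. The IL-25 pair also changed order. Per length, Il17rb was below Il17ra in each of 7 ALP libraries (−10.04 to −4.42 log2 CPM per kb), above it in 3 of 7 EILP libraries and above it in 5 of 5 ILCp libraries (0.37 to 2.33).

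Il17re (chromosome 6, 113458484 to 113470758, + strand), which with Il17ra binds IL-17C and is best known from epithelium, was chosen for a dip in EILP. ALP ran from 4.32 to 8.21 log2 CPM with a median of 6.34. EILP stood at −2.96, 2.66, −0.93, −0.28, 2.39, −2.57 and −2.57, the last pair at the zero level. ILCp stood at 7.05, 5.30, 4.59, 4.83 and 5.40. Every EILP library was below every ALP and ILCp library, and ALP and ILCp overlapped. The gap between EILP and ALP ranged from −9.91 in batch 5 and −9.72 in batch 1 to −1.80 in batch 2, and that between ILCp and EILP from 2.55 in batch 4 to 10.01 in batch 1. Between ILCp and ALP the direction depended on the measure. ILCp was above ALP by 0.29 to 0.84 within the 3 batches with both groups, while the mean was 6.03 ± 1.56 (SD, n = 7) in ALP and 5.44 ± 0.97 (SD, n = 5) in ILCp, and the fitted difference was −0.60 (−1.41 to 0.53 over other settings). EILP also had the highest sums of 9 bone stroma and endothelium genes (174 to 1611 CPM, against 126 to 198 in ALP and 150 to 173 in ILCp), and the part of such RNA in the level of Il17re was not tested. Per length, Il17re was above Il17ra in 1 of 7 ALP, 0 of 7 EILP and 1 of 5 ILCp libraries.

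The genes whose levels followed Il17re most closely over the 19 libraries were Pnkd (Pearson r = 0.93), AW554918 (0.92) and Adar (0.92), out of 10559 genes with a group median of at least 2 log2 CPM. AW554918 had medians of 3.75, 0.30 and 4.17 log2 CPM in ALP, EILP and ILCp, and the RNA editing enzyme gene Adar 7.40, 6.32 and 6.96. For Il18r1 the nearest genes were Ctsf, a lysosomal protease, Slc25a23 and Arpc5 (r = 0.93, 0.92 and 0.91). Il1rl1 was nearest to Prrt1, Fam120b and Fbxo33 (0.92, 0.85 and 0.85), and Il17rb to Unc119, Actg1 and the T cell receptor constant gene Trbc2 (0.95 for each). Il17ra was nearest to Nav1, Dennd5a and the immunoglobulin gene Ighm (0.95, 0.95 and 0.94), and Il1r1 to Ticam2, Rock2 and 2700029M09Rik (0.94, 0.94 and 0.93). Il18rap was nearest to Epsti1, Cd2ap and Rel, an NF-kappaB subunit (0.98, 0.96 and 0.95), and Il1rap to Btbd6, Pcgf1 and Efcab11 (0.95, 0.93 and 0.92). The libraries share batches and a common scaling, so these values are descriptions.

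Il17rc (chromosome 6, 113471427 to 113483140, + strand), the IL-17A and IL-17F chain, starts 668 bases after the end of Il17re and did not share its levels. It had a median of −3.22 log2 CPM in ALP (−6.77 to 1.51) and −3.22 in EILP (−5.63 to 0.81), and stood at 2.19, 0.05, −4.30, −4.30 and −0.72 in ILCp, with 2 libraries of each group at the zero level. The groups overlapped throughout (limma adjusted p = 1, 0.866 and 0.874 for EILP versus ALP, ILCp versus EILP and ILCp versus ALP). Jagn1 and Creld1, which flank the pair, had medians of 6.83, 6.45 and 6.06, and of 3.63, 2.07 and 2.31, in ALP, EILP and ILCp. Neither passed the test in any of the 3 comparisons.

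Il23r (chromosome 6, 67422932 to 67491855, − strand) was at the zero level in 7 of 7 ALP, 4 of 7 EILP (EILP 4 by inference) and 4 of 5 ILCp libraries. The libraries above it were EILP 3, EILP 6, EILP 7 and ILCp 5, at 2.01, 0.85, 1.20 and 0.99 log2 CPM, and no fold is given. Its neighbour Il12rb2, the IL-12 receptor β2 chain, lies 46743 bases away and had medians of 2.26, 6.10 and 5.67 log2 CPM in ALP, EILP and ILCp. Il12rb2 rose from ALP to EILP by 3.55 ± 0.71 (limma adjusted p = 0.00654). Il12rb1, which pairs with both Il23r and Il12rb2, had medians of 1.44, 4.13 and 6.38 and rose from ALP to ILCp by 4.72 ± 0.86 (limma adjusted p = 0.00239). Transcripts of the IL-12 receptor chains were thus present in ILCp libraries in which Il23r was not detected.

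Levels of different genes can be ranked per length of exon. In ALP the order by median was Il17ra (5.28 log2 CPM per kb), Il18rap (5.06), Il1r1 (4.66) and Il17re (3.79), followed by Il1rap, Il17rb, Il18r1, Il1rl1, Il17rc and Il23r. The ranges of Il18rap (3.99 to 7.50) and Il17re (1.76 to 5.66) overlapped those of their neighbours in this order, while those of Il17ra (5.13 to 5.59) and Il1r1 (3.72 to 4.97) did not meet. In EILP Il17rb (3.45) and Il17ra (3.34) led with ranges that overlapped, ahead of Il1r1, Il18r1 and Il18rap. In ILCp Il18r1 (5.38, range 5.14 to 6.31) and Il17rb (4.68, range 4.41 to 6.04) led and overlapped, and both lay above Il17ra (4.01, range 3.39 to 4.35). Il18r1 was thus at rank 7 of 10 in ALP and rank 1 of 10 in ILCp, and Il17rb at rank 6 and rank 2.

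No difference in these receptors was called between the 2 reporter strains of ILCp. Of the 9 tested members, 0 passed (limma adjusted p below 0.05), where 0.0752% of all genes did, 0.0645% higher and 0.0107% lower in Plzf-cre-GFP/+. An unadjusted p below 0.05 was found for 0 of the 9 and for 845 of all 18607 genes. Il17rb was at 7.22 and 7.93 log2 CPM in Plzf-cre-GFP/+ and at 6.30 to 6.57 in Tcf7EGFP/+ ILCp, a fitted difference of 1.48 ± 1.61. For Il18r1 the difference was 0.03 ± 1.20. With 2 against 3 libraries such errors are too wide to show that the strains are alike, and the strain also falls together with the batch, since both Plzf-cre-GFP/+ libraries are in batch 4 beside ILCp 3 alone.

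Genes that act with these receptors were followed in lists of known function. Among ligands, 5 of 11 IL-1 family genes and 2 of 8 IL-17 and IL-23 family genes were in the table. None passed in any comparison (limma adjusted p below 0.05). The share over all genes was 5.05%, 3.21% and 8.24% in EILP versus ALP, ILCp versus EILP and ILCp versus ALP. Il33 was at the zero level in 7 of 7 ALP, 6 of 7 EILP and 5 of 5 ILCp libraries. Il18 had medians of 2.27, −1.62 and −3.63 log2 CPM in ALP, EILP and ILCp (limma adjusted p = 0.18 for ILCp versus ALP). Il17d, a ligand of the IL-17 family, had medians of −3.29, −0.31 and −3.29 (limma adjusted p = 0.335 for EILP versus ALP). Of the other IL-1 family receptors, 3 of 5 were in the table and none passed. Sigirr, an inhibitory receptor of the family, had medians of 6.07, 5.52 and 5.96.

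Of 15 genes of IL-1 receptor signalling, 1 rose from ALP to EILP, 0 passed from EILP to ILCp, and 2 rose and 1 fell from ALP to ILCp (background over all genes 5.05%, 3.21% and 8.24%), with medians of 0.12, 0.25 and 0.27 on the log2 scale. The kinase gene Irak2 had medians of 2.76, 5.04 and 5.91 log2 CPM in ALP, EILP and ILCp, and its values did not overlap between groups. Irak2 rose by 2.42 ± 0.38 from ALP to EILP (limma adjusted p = 0.000962) and by 3.44 ± 0.43 from ALP to ILCp (limma adjusted p = 9.57e-05). Tab2, an adaptor of the kinase TAK1, rose by 1.65 ± 0.41 from ALP to ILCp (limma adjusted p = 0.0183). Pik3ap1, an adaptor that links Toll and IL-1 receptors to PI3 kinase, fell by 2.92 from ALP to ILCp (SE 0.47, limma adjusted p = 0.000944). Myd88, the common adaptor, had medians of 5.79, 5.25 and 5.92.

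Of 14 genes of IL-17 and IL-23 receptor signalling in the table, 2 rose and 1 fell from ALP to EILP, 3 rose from EILP to ILCp, and 3 rose from ALP to ILCp (background 5.05%, 3.21% and 8.24%), with medians of −0.13, 0.52 and 0.38. Jak2 and Stat3, which many cytokine receptors use, rose from ALP to EILP by 1.16 ± 0.22 and 1.08 ± 0.21 (limma adjusted p = 0.00497 and 0.0044). Stat4, known for IL-12 signalling, rose from EILP to ILCp by 1.65 ± 0.36 (limma adjusted p = 0.0217). Nfkbiz, which encodes IκBζ and is induced by IL-1 and IL-17, had medians of 2.04, −4.13 and 2.51 log2 CPM in ALP, EILP and ILCp. Nfkbiz fell by 5.75 from ALP to EILP (SE 1.30, limma adjusted p = 0.0151) and rose by 6.88 ± 1.54 from EILP to ILCp (limma adjusted p = 0.0241). Traf3ip2, which encodes Act1, had medians of 3.52, 3.02 and 4.74 (limma adjusted p = 0.232 for ILCp versus EILP).

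Of 5 other receptor genes that share chains or ligand families with the IL-17 and IL-23 receptors, 1 rose from ALP to EILP, 1 rose from EILP to ILCp, and 3 rose and 1 fell from ALP to ILCp (background 5.05%, 3.21% and 8.24%), with medians of 0.56, 0.14 and 2.57. Il27ra, the IL-27 receptor, rose from EILP to ILCp by 2.68 ± 0.42 (limma adjusted p = 0.0026) and from ALP to ILCp by 2.57 ± 0.40 (limma adjusted p = 0.000722). Il6st, the shared chain of the IL-6 and IL-27 receptors, fell from ALP to ILCp by 5.69 (SE 1.31, limma adjusted p = 0.0122), from a median of 7.86 to one of 3.37 log2 CPM. Il17rd was at the zero level in 7 of 7 ALP libraries and 6 of 7 EILP libraries.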

How the data were processed

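Per the labels' protocols, RNA from RNeasy plus micro columns went into SMARTer Ultra Low v3 cDNA and Nextera XT libraries, which carry no strand information. The submitters' processing notes name bcl2fastq 1.8.4, STAR 2.4.0h, edgeR, limma and build mm10, with no role given, and the sources used here do not give the counting method. The deposited values are log2 CPM. From the values, linear sums were 908573 to 1035204 per library and batch had been removed with the groups kept, which makes SDs within groups too small. Without library counts, counting intervals could not be had.

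Genes were tested with limma 3.58.1 in R 4.3.3 (moderated, mean-variance trend, two-sided) over 18607 genes and 19 libraries, with group and batch as fixed effects (12 residual degrees of freedom) and Benjamini-Hochberg adjusted p below 0.05. EILP 3 and EILP 4, alone in batch 3, inform the errors and not the fold changes. For the reporter strains, the ILCp term was split by genotype. No pseudocount applies to values deposited as logs. The procedure was tested on simulated data.

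The members, the gene lists and the marker lists were chosen with earlier results of these data known. Named genes were the 10 receptors, up to 2 rising and 2 falling genes of each list per comparison with the smallest p or else the gene with the smallest p, 3 most alike genes per receptor, and genes that overlap or flank a receptor. Sigirr, Myd88, Traf3ip2, Il17rd and the marker genes were named after their values were seen. Positions are from GENCODE M21 (GRCm38, the same assembly as mm10), and upstream sequences are from RefSeq (GRCm38.p6). Exon length is the union of annotated exons. The table also has 9 empty columns.

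Same-numbered libraries of different groups correlated at −0.64 to 0.12 in their deviations from group means (17 pairs, 1 above 0.1), so the numbers do not pair samples. Alternatives changed the batch term (none, random, or a replicate block in its place), the libraries (each one out, Plzf-cre-GFP out, groups compared alone, batches holding both groups), the scaling (quantiles, median centring), the gene filter (higher mean levels) and the limma variance (untrended, robust). Leaving out ALP 7 and EILP 2 together, batch 3 or batch 4 was added after seeing the data.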

Additional observations from a re-analysis of the deposited data

Results flagged for a closer look

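In 4 of the 30 combinations of a receptor gene and a group, 1 library stood far from the rest of its group by Dixon's criterion, which chance meets in about 1 of 20 groups. Il18rap was at −2.99 log2 CPM in EILP 6, against 4.03 or more in the other EILP libraries. Il17rb was at −3.01 in ALP 6, against 2.03 or more in the other ALP libraries. Il1rap was at −0.94 in ILCp 2, the zero level of its batch, and Il23r was at 0.99 in ILCp 5 while the other ILCp libraries were at the zero level.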

How the results depend on the processing

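The number of the 9 tested receptors past the threshold depended on the setting. For ILCp versus ALP it was 4, and it was 4 without each single library, 8 with batch as a random effect and 3 without batch 4 or with the groups compared alone. For EILP versus ALP it was 3, and it was 1 to 3 without single libraries (1 without EILP 6 or EILP 7), 1 without the Plzf-cre-GFP libraries, 1 without batch 4 and 7 with batch as a random effect. For ILCp versus EILP it was 1, and it was 0 to 1 without single libraries, 3 without the batch term, 5 with batch as a random effect, and 0 with no variance trend, without the Plzf-cre-GFP libraries, with batch 3 or batch 4 omitted, and with ALP 7 and EILP 2 both omitted. With the groups compared alone it was again 1, but the receptor was Il1rl1 in place of Il18r1. The reporter strains gave 0 in each of 27 settings. Fits without the batch term or with batch as a random effect understate the error, since batch had already been removed from the values. With the replicate number as a block the counts were 4, 1, 4 and 0 for EILP versus ALP, ILCp versus EILP, ILCp versus ALP and the strains; the numbers do not pair the samples. Of 1000 values of single tested receptors under other settings (Il23r left out), 946 stayed on the same side of the threshold, 38 lost a call and 16 gained one. Most of these values belong to receptors that were not called, so the total says little about the calls. Calls were lost in 17 of 33 settings for Il1r1 and 6 of 33 for Il17rb in EILP versus ALP. The losses were 13 of 33 for Il18r1 in ILCp versus EILP and 2 of 33 for Il17rb in ILCp versus ALP. The remaining calls held in each of 33. Sign was followed only for tested receptors other than Il23r with an unadjusted p below 0.05, of which 0 changed direction. The causes were not tested. Median centring moved the median gene by 0.22 in EILP versus ALP and by 0.13 in ILCp versus ALP. Il1rl1, Il17rc and Il23r lie in the lower part of genes by mean level and drop out under that filter. The unknown depth limits what can be said of Il17rc and Il23r, whose zero level may be a missed transcript.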
